A study of Mus musculus with 8 samples.

Results

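The 44 genes described here encode the machinery that breaks down fatty acids in mitochondria and peroxisomes. They were chosen by their known function, with earlier results of these data known. Counts of members beside the shares of all tested genes therefore describe the set and do not test it. The genes fall into 5 carnitine transferases (Cpt1a, Cpt1b, Cpt2, Crat, Crot), 16 genes of mitochondrial beta-oxidation (Acadl, Acadm, Acads, Acadvl, Acad10, Acad11, Hadha, Hadhb, Hadh, Echs1, Eci1, Decr1, Etfa, Etfb, Etfdh, Acaa2), 5 acyl-CoA thioesterases (Acot1, Acot2, Acot3, Acot4, Acot8), 4 acyl-CoA synthetases (Acsl1, Acsm1, Acsm2, Acsm3), 13 peroxisomal genes (Eci2, Decr2, Acaa1a, Acaa1b, Acox2, Acox3, Ehhadh, Hsd17b4, Pex11a, Pex5, Pex14, Abcd3, Phyh) and the fatty acid binding protein Fabp1. Each gene was represented by its probe set with the highest mean. Of the 44 genes 40 were measured, out of 22180 genes in all. Cpt1b, Acot8 and Acsm3 lie only on probe sets that name several genes, no probe set was listed for Acsl1, and these 4 were not analysed here. The 36 genes whose mean log2 value passed 6.64, a level that 75% of probe sets do not reach, were tested among 7145 genes. Hadhb, Acot3, Acot4 and Fabp1 lay below it and are given as levels without a test.

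Whole kidneys of 8 mice aged 2 months were profiled, with 1 array per mouse. The double mutant (Col4a3-/-OPN-/-, n = 3) lacks Col4a3 and osteopontin, the single mutant (Col4a3-/-, n = 3) lacks Col4a3, and both were set against wild type (n = 2). Col4a3 encodes a collagen IV chain of the glomerular basement membrane, its loss is a model of Alport syndrome, and osteopontin is a secreted phosphoprotein of matrix and urine. The labels give no strain, and no group lacks osteopontin alone, so every statement on osteopontin rests on mice that also lack Col4a3.

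Fatty acids are the main fuel of the proximal tubule, the segment of the nephron that reabsorbs most of the filtrate and holds most of the kidney's mitochondria and peroxisomes. An acyl-CoA synthetase first joins the fatty acid to coenzyme A, the carnitine transferases pass the acyl group into the mitochondrion, and a cycle of dehydrogenation, hydration, dehydrogenation and thiolytic cleavage shortens it, while thioesterases release free fatty acid again. Peroxisomes shorten very long and branched chains by a related cycle whose first enzyme is an oxidase. Many of these genes are targets of the nuclear receptor PPAR alpha, and several are known to differ between male and female rodents.

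The labels give no sex, so it was read from Xist and from Eif2s3y, Kdm5d and Uty on the Y chromosome. Double mutants 1 and 2 and single mutants 1 and 3 read as female, and double mutant 3, single mutant 2 and both wild types read as male. Col4a3 measured 6.13 to 7.60 in double mutants, 6.60 to 7.67 in single mutants and 8.42 and 8.77 in wild type, and the labels do not say whether its probes lie within the deletion. Each comparison was fitted with limma on genotype alone, as the labels give it, and again with a term for sex. The sex term takes the difference between females and males from the 6 mutants and applies it to wild type, where no female was present. In a bulk kidney, fewer cells of a type and less RNA per cell cannot be told apart.

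As a set, the members lay lower in mutant than in wild type kidneys, most of all in the 2 male mutants, and no member passed the test on genotype alone. With the sex term 15 of 36 tested members fell in the double mutant, against 17.8% of all tested genes. In the single mutant 24 of 36 fell, against 19.9%, and none rose in either. The double and the single mutant did not differ in any member past the threshold. The mean over the 40 measured members was 9.06, 8.67 and 8.38 in double mutants 1 to 3 and 8.84, 8.05 and 8.80 in single mutants 1 to 3, against 9.08 and 9.03 in wild type. Single mutant 2 had the lowest value of all 8 arrays in 28 of the 36 tested members, against 25.3% of all tested genes, and the highest in none, against 18.3%.

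**Figure D1:**
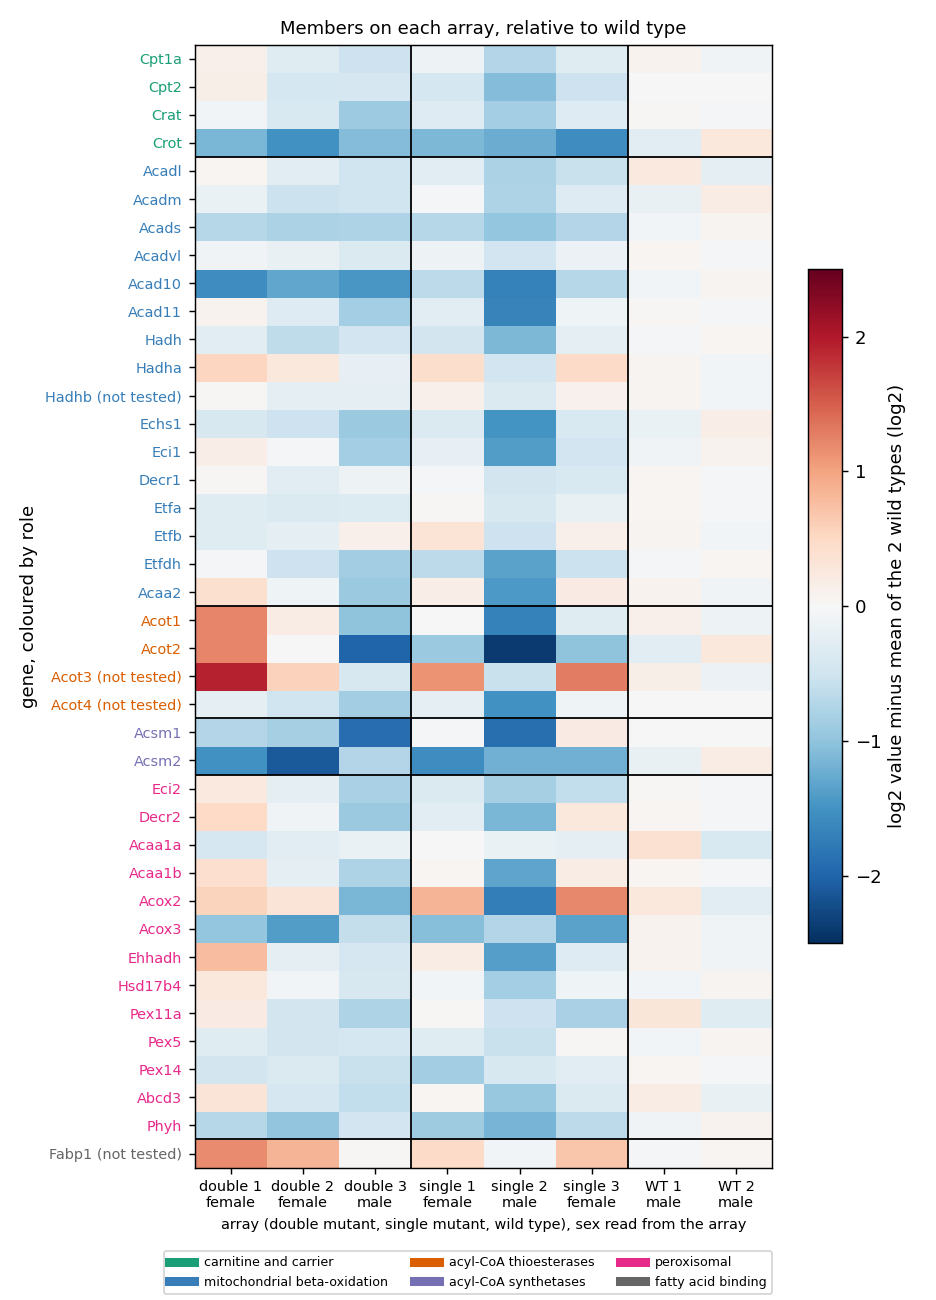
Each cell is the log2 value of 1 gene on 1 array minus the mean of the 2 wild types, with genes in rows coloured by role and arrays in columns (double mutants, single mutants, wild types, with the sex read from the array). Crot, Acads and Acad10 are blue in all 6 mutants, while Acot1, Acot2, Acox2 and Acaa2 are lowest in the 2 male mutants.

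On genotype alone limma called 0 of 36 members in the double mutant against wild type and 0 in the single mutant, at an adjusted p under 0.05. The background was as low: 0.028% of all tested genes were lower and 0.056% higher in the double mutant, and 0.014% were lower and 0.014% higher in the single mutant. At an unadjusted p under 0.05 there were 7 members in the double and 11 in the single mutant, where 21.6% and 23.2% of all tested genes passed, so that the members' shares were near the background. The median difference over the 40 measured members was -0.26 in the double and -0.50 in the single mutant, against a median of -0.01 over all 22180 measured genes in either comparison. Of the 36 tested members 33 lay below wild type in the double mutant and 34 in the single mutant, where 59.2% and 57.2% of all tested genes did.

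In 14 of 36 members all 3 double mutants lay below both wild types, against 28.8% of all tested genes, and in 19 of 36 all 3 single mutants did, against 29.1%. Acad10, Acads, Acadvl, Acox3, Acsm2, Crat, Crot, Echs1, Hadh, Pex14 and Phyh were below both wild types in all 6 mutants, which is 11 of 36 members against 21.4% of all tested genes. No member lay above both wild types in all mice of either mutant, against 17.4% of tested genes for the double and 19.3% for the single mutant.

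With the sex term the 15 members that fell in the double mutant compare with 17.8% of all tested genes lower and 6.4% higher, and the 24 that fell in the single mutant with 19.9% lower and 7.31% higher. All 36 tested members lay below 0 in both, where 62.2% of all tested genes did in the double and 60.7% in the single mutant. The median over the 40 measured members was then -0.67 in the double and -0.89 in the single mutant. These calls rest on few arrays. Without single mutant 2 the sex-term fit called 12 members lower in the double mutant, against 11.8% of all tested genes, and 0 in the single mutant, where it called 0% of all tested genes. The median of the members in the single mutant was then -0.71, with 38 of 40 below 0. Without wild type 2 it called 1 in the double and 0 in the single mutant, against 0.462% and 0.574% of all tested genes lower, and without wild type 1 it called 7 and 13, against 9.32% and 12.7%. The median over all tested genes was -0.15 in both sex-term comparisons as deposited, -0.06 in the double and -0.04 in the single mutant after quantile normalization, -0.04 in both after cyclic loess, and -0.20 and -0.19 after median centring. Lower genes made up 73.6% of all calls in the double and 73.2% in the single mutant as deposited, 57% and 56.3% after quantile normalization, 54.6% and 55.8% after loess, and 78.9% and 77.6% after centring. Relative to that median the tested members lay at -0.56 in the double and -0.76 in the single mutant, at -0.53 and -0.70 after quantile normalization and at -0.48 and -0.70 after loess, so that they lay below the typical gene under each scaling.

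**Figure D2:**
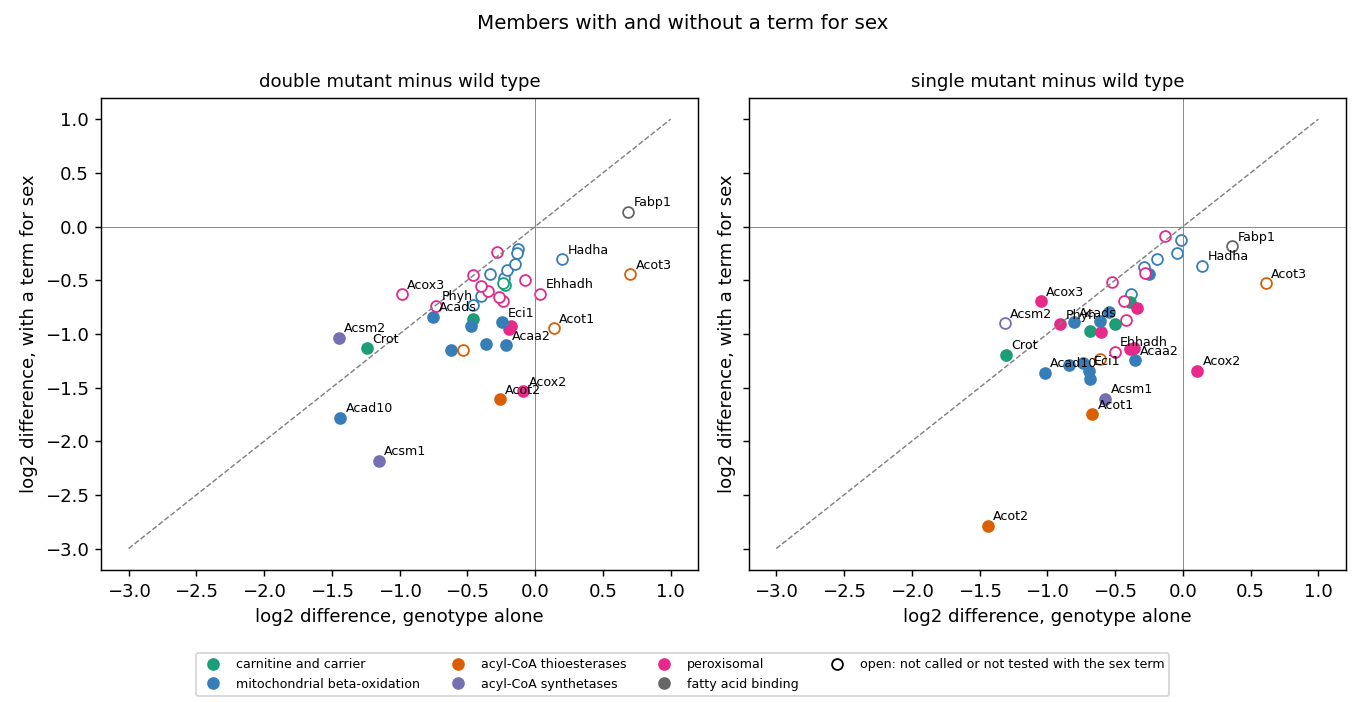
Each point is 1 of the 40 measured members, with its log2 difference on genotype alone on the x axis and with the sex term on the y axis, for the double mutant (left) and the single mutant (right) against wild type; filled points passed limma's adjusted p under 0.05 with the sex term. Acot2 moves from -0.26 to -1.61 in the double and from -1.44 to -2.79 in the single mutant, while Crot and Acads stay near the diagonal.

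Kidney cell markers also differed between mutants and wild type. The mean log2 value of 15 proximal tubule markers was 10.61, 10.32 and 10.56 in double mutants 1 to 3. It was 9.63 to 10.91 in single mutants and 11.32 and 11.35 in wild type. All 15 had a lower group mean in both mutants. The list mean was lowest in single mutant 2, as was that of the members. Among double mutants the order of the list means differed, with member means of 9.06, 8.67 and 8.38. Double mutant 1 was near wild type in the member mean (9.08 and 9.03) but not in the marker mean. The marker mean includes a gene with a female minus male difference of -4.40. Single markers varied. Double mutant 1 measured 11.57 in Slc22a8, 12.02 in Miox and 11.39 in Slc13a3. Wild types measured 11.48 and 11.52, 12.07 and 12.08, and 11.24 and 11.18. In Slc5a2 it was lower, at 9.50 against 10.27 and 10.40. Macrophage markers averaged 8.20 to 8.52 in double mutants, 7.40 to 8.91 in single mutants and 6.42 and 6.61 in wild type, and none of the 8 had a lower group mean in either mutant. Tubule injury markers averaged 8.15 to 9.11 in double mutants, 7.71 to 8.86 in single mutants and 6.75 and 7.14 in wild type, with the male the highest of each mutant group. Fibroblast and matrix markers averaged 8.68 to 9.05 in double mutants, 7.98 to 9.41 in single mutants and 6.96 and 7.08 in wild type. With the sex term, limma called 8 of 15 proximal tubule markers lower in the double and 9 of 15 lower in the single mutant. In both, 5 of 6 tested macrophage markers and 4 of 6 tested fibroblast markers were called higher. Of all tested genes 17.8% were lower and 6.4% higher in the double mutant, and 19.9% lower and 7.31% higher in the single mutant. The part of these cells in the changes of the members was not tested.

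**Figure D3:**
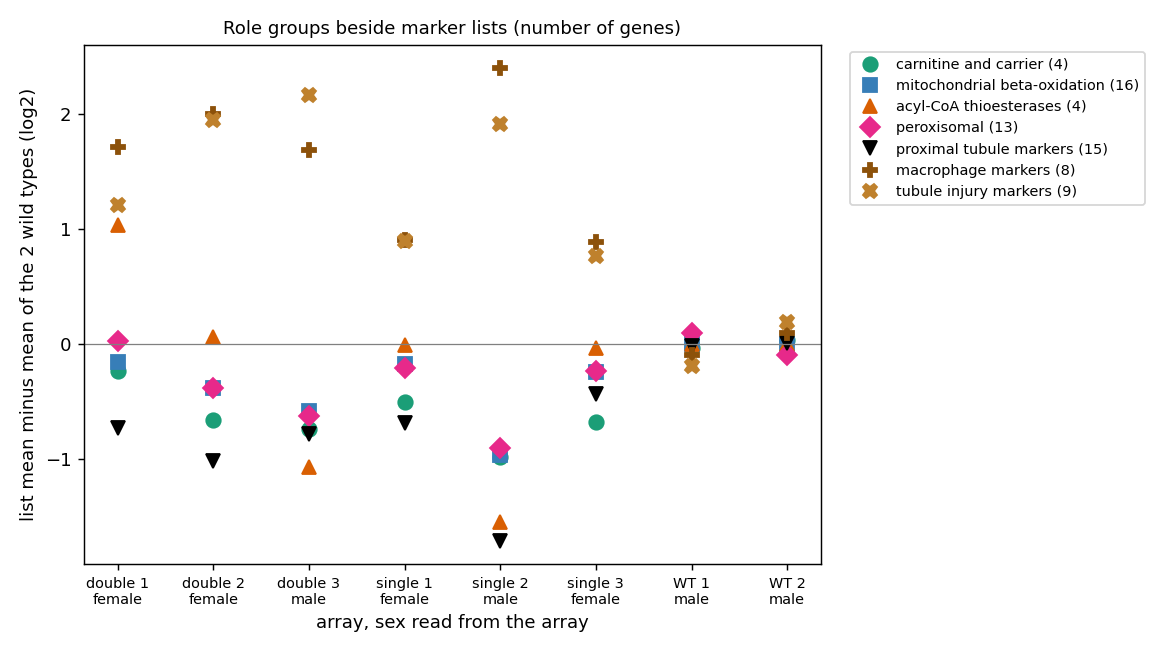
The y axis gives the mean log2 value of a list of genes on 1 array minus the mean of the 2 wild types, and the x axis the 8 arrays from double mutants to wild types, for 4 role groups of members and 3 marker lists with the number of genes in brackets. Double mutant 3 and single mutant 2, the males, are the only mutants with thioesterase means more than 1 below wild type, and single mutant 2 is also lowest in proximal tubule markers.

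All 4 measured carnitine transferases had lower group means in both mutants. With the sex term 2 of 4 fell in the double and 4 of 4 in the single mutant, against 17.8% and 19.9% of all tested genes. Crot (chr5:8966033-8997146, coordinates of GRCm38 here and below), the peroxisomal carnitine octanoyltransferase that hands shortened chains on to mitochondria, measured 9.94, 9.57 and 9.99 in double mutants and 9.96, 9.83 and 9.53 in single mutants, against 10.81 and 11.35 in wild type. All 6 mutants lay well below both wild types, and the sexes overlapped. Its difference from wild type was -1.24 (2.37-fold lower, SE 0.22, adjusted p = 0.0686 in limma) in the double and -1.30 (2.47-fold lower, SE 0.22, adjusted p = 0.0682) in the single mutant. Fitted with sex it was -1.14 (adjusted p = 0.0199) and -1.19 (adjusted p = 0.0161). Its difference stayed below 0 in every alternative run, between -1.51 and -0.97 in the double and between -1.57 and -1.03 in the single mutant on genotype alone.

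Crat, the carnitine acetyltransferase that buffers acetyl-CoA, also fell in both mutants with the sex term, by 0.86 in the double (limma adjusted p = 0.0125) and by 0.91 in the single mutant (adjusted p = 0.0106). It measured 9.11, 8.81 and 8.27 in double and 8.87, 8.33 and 8.86 in single mutants, against 9.22 and 9.15 in wild type, so that the males were lowest. Cpt1a, the transferase of the outer mitochondrial membrane that limits the entry of long chains, fell by 0.70 in the single mutant (adjusted p = 0.0297), and its -0.54 in the double mutant did not pass (adjusted p = 0.0666). Cpt2, its partner at the inner membrane, differed by -0.53 in the double (adjusted p = 0.108) and by -0.97 in the single mutant (adjusted p = 0.019).

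Of 15 tested genes of mitochondrial beta-oxidation 7 fell in the double and 10 fell in the single mutant with the sex term, and none rose. Of all tested genes 17.8% and 19.9% fell. On genotype alone the median over the 16 measured genes was -0.29 in the double and -0.46 in the single mutant. Fitted with sex it was -0.69 and -0.84. The 7 of the double mutant were Acads, Acad10, Acad11, Echs1, Eci1, Etfdh and Acaa2, and the 10 of the single mutant were these and Acadl, Acadvl and Hadh.

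Acads and Acad10 were the clearest among the acyl-CoA dehydrogenases, which open each round of the cycle. Acads (chr5:115110299-115119346), the enzyme for short chains, measured 8.28, 8.19 and 8.22 in double and 8.28, 8.01 and 8.24 in single mutants, against 8.91 and 9.05 in wild type. The mutants covered a range far narrower than their distance to wild type, and females and males did not separate. Its difference was -0.75 (SE 0.13, adjusted p = 0.0686 in limma) in the double and -0.80 (SE 0.13, adjusted p = 0.0682) in the single mutant, and with the sex term -0.84 (adjusted p = 0.0112) and -0.89 (adjusted p = 0.00945).

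Acad10 (chr5:121621026-121660603), a member of the same family, measured 6.74, 6.99 and 6.85 in double and 7.64, 6.60 and 7.59 in single mutants, against 8.23 and 8.36 in wild type. All double mutants were low, while among the single mutants only the male reached their level. Fitted with sex, Acad10 fell by 1.78 in the double (3.44-fold, SE 0.27, limma adjusted p = 0.0108) and by 1.36 in the single mutant (SE 0.27, adjusted p = 0.0138). The double mutant differed from the single mutant by -0.42 (95% interval -1.04 to 0.20 on genotype alone), and this did not pass.

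Acad11 (chr9:104063724-104127656) measured 9.26, 8.85 and 8.32 in double and 8.89, 7.50 and 9.06 in single mutants, against 9.20 and 9.14 in wild type. It was low in the 2 male mutants and close to wild type in the females. Its difference was -0.36 (limma adjusted p = 0.673) and -0.69 (adjusted p = 0.374) on genotype alone, and -1.10 (adjusted p = 0.0196) and -1.42 (adjusted p = 0.0103) with the sex term, in the double and the single mutant in that order. Acadl, Acadm and Acadvl, the enzymes for long, medium and very long chains, had sex-term differences of -0.48, -0.65 and -0.41 in the double and -0.79, -0.63 and -0.44 in the single mutant. Of these only Acadl and Acadvl in the single mutant passed.

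Echs1 (chr7:140105710-140116421), the short-chain enoyl-CoA hydratase, measured 9.59, 9.46 and 9.05 in double and 9.62, 8.50 and 9.61 in single mutants, against 9.81 and 10.16 in wild type. It was below both wild types in all 6 mutants and lowest in the males. Its sex-term difference was -1.15 (SE 0.22, limma adjusted p = 0.0138) in the double and -1.27 (SE 0.22, adjusted p = 0.0105) in the single mutant.

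Eci1 (chr17:24426683-24439316), the isomerase that lets unsaturated chains enter the cycle, measured 9.03, 8.81 and 8.02 in double and 8.65, 7.47 and 8.38 in single mutants, against 8.78 and 8.95 in wild type. The sex-term fit of limma gave -0.89 (adjusted p = 0.0137) in the double and -1.34 (adjusted p = 0.00726) in the single mutant, the smallest adjusted p of any member in the single mutant. The female double mutants were near or above wild type, and double mutant 1 was the highest of the 8 arrays.

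Etfdh (chr3:79603788-79628767), which passes the electrons of the dehydrogenases to ubiquinone, measured 10.25, 9.76 and 9.40 in double and 9.62, 8.94 and 9.74 in single mutants, against 10.24 and 10.32 in wild type. Etfdh fell with the sex term by 0.92 (limma adjusted p = 0.0164) and by 1.29 (adjusted p = 0.00816) in the double and the single mutant. Its electron donors, the flavoprotein subunits Etfa and Etfb, did not pass, at -0.44 and -0.25 in the double and -0.30 and -0.13 in the single mutant.

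Acaa2 (chr18:74779212-74806207), the mitochondrial thiolase that cleaves off acetyl-CoA, measured 10.01, 9.51 and 8.69 in double and 9.78, 8.19 and 9.82 in single mutants, against 9.71 and 9.52 in wild type. The 4 females covered the wild type values and the 2 males lay far below them. Acaa2 fell with the sex term by 1.11 (limma adjusted p = 0.0171) in the double and by 1.25 (adjusted p = 0.0116) in the single mutant, against -0.21 and -0.35 on genotype alone. Hadha, the trifunctional protein's alpha subunit, was the only mitochondrial gene with a positive difference on genotype alone, 0.20 in the double and 0.14 in the single mutant, and -0.31 and -0.36 with the sex term, none past the threshold. Its partner Hadhb was below the filter at 4.80 to 5.28 on all arrays. Decr1, the dienoyl-CoA reductase, differed by -0.21 and -0.38 with the sex term without passing, and Hadh, the short-chain hydroxyacyl-CoA dehydrogenase, by -0.73 (adjusted p = 0.0616) and -0.88 (adjusted p = 0.0331).

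**Figure D4:**
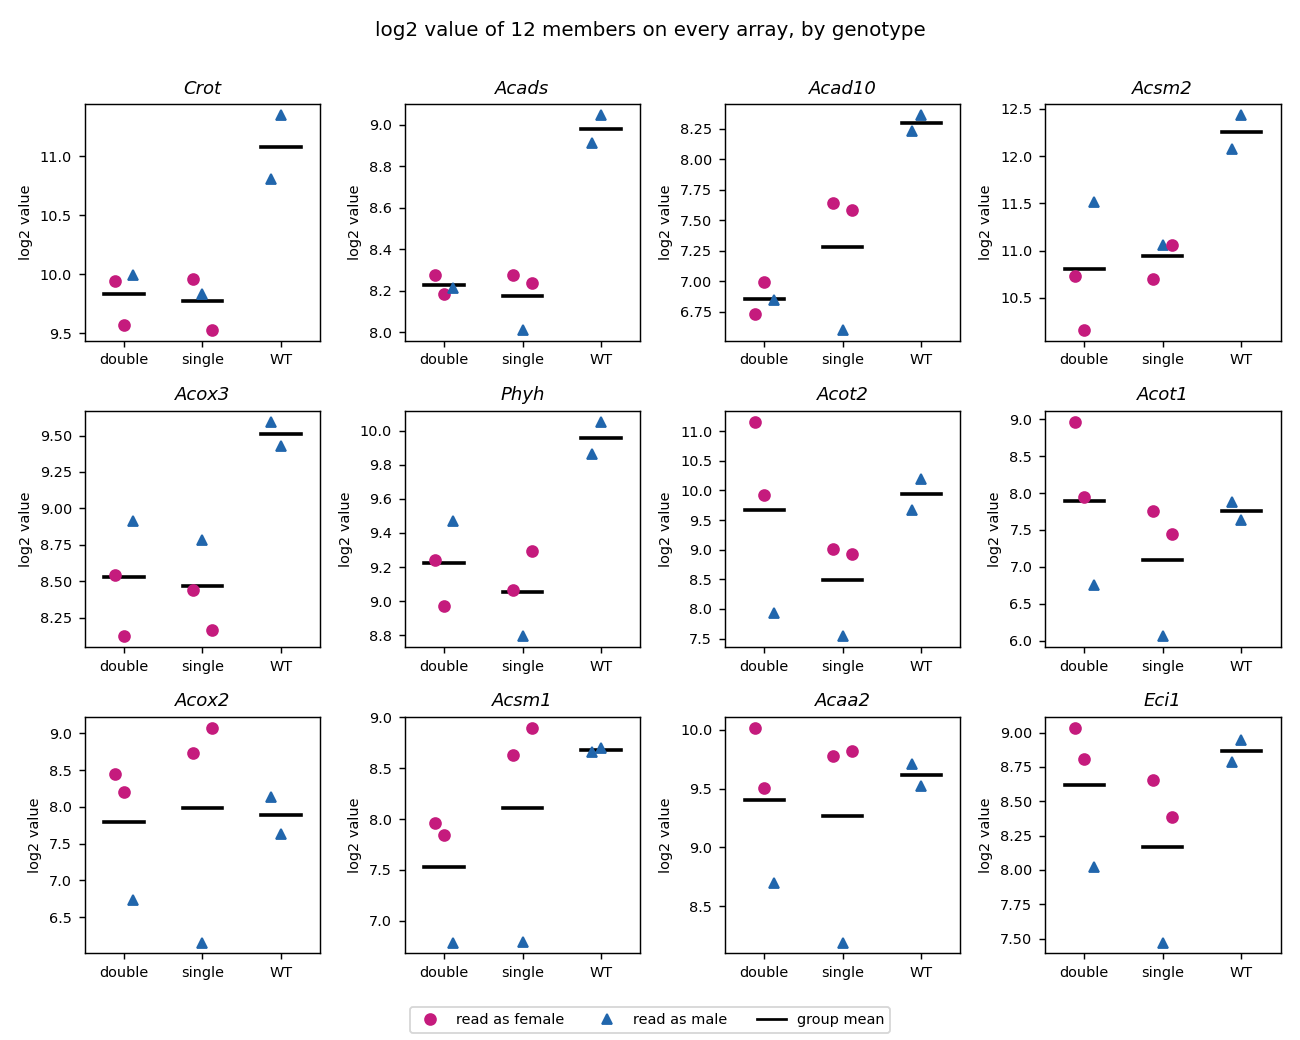
The y axis of each panel is the log2 value of 1 member (each panel with its own scale) and the x axis the genotype, with circles for arrays read as female, triangles for arrays read as male and a bar for the group mean. In the panels of Crot and Acads all mutants lie below both wild types, and in those of Acot2, Acot1, Acox2, Acsm1, Acaa2 and Eci1 the male mutant is the lowest of its group.

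The thioesterases had the widest spread of all role groups, and females and males lay far apart. Acot2 (chr12:83987861-83993877), the mitochondrial enzyme, measured 11.16, 9.92 and 7.93 in double and 9.01, 7.54 and 8.93 in single mutants, against 9.66 and 10.20 in wild type. Double mutant 1 was the highest of the 8 arrays, and the male mutants were the 2 lowest. Acot1 (chr12:84009502-84017670), its cytosolic relative, measured 8.97, 7.95 and 6.76 in double and 7.75, 6.06 and 7.45 in single mutants, against 7.87 and 7.64 in wild type, in the same order of arrays at both ends.

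On genotype alone Acot2 differed from wild type by -0.26 (SE 0.86, limma adjusted p = 0.882) in the double and by -1.44 (SE 0.86, adjusted p = 0.324) in the single mutant. With the sex term its difference was -1.61 (3.05-fold lower, SE 0.48, adjusted p = 0.0459) in the double and -2.79 (6.90-fold lower, SE 0.48, adjusted p = 0.0106) in the single mutant, the largest of any member. Without single mutant 2 it was -3.58 in the single mutant with the sex term, in a fit where limma called no gene at all in that comparison. The sex difference of that fit came from double mutant 3, the only male mutant left. On genotype alone Acot2 was then at -0.96 in the single mutant. Acot1 fell by 1.75 (adjusted p = 0.012) in the single mutant, and its -0.95 in the double mutant did not pass (adjusted p = 0.0696).

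The 2 thioesterases below the filter behaved unlike each other. Acot3 (chr12:84052144-84060400), a peroxisomal enzyme, measured 7.92, 6.58 and 5.59 in double and 7.11, 5.43 and 7.28 in single mutants, against 6.14 and 5.85 in wild type, so that the 4 females lay above wild type and the 2 males below. Acot4 (chr12:84037254-84044723), which acts on succinyl-CoA and other dicarboxylic chains, measured 6.68, 6.40 and 6.03 in double and 6.67, 5.39 and 6.79 in single mutants, against 6.91 and 6.88 in wild type, below wild type in all 6 mutants. A second probe set of Acot4 lay at 5.60 to 6.40 on all arrays and did not show this order. There single mutant 1 (6.40) was above both wild types (6.34 and 6.16). Double mutant 1 (6.31) and single mutant 3 (6.17) lay between the wild types, and the other mutants lay below. Over the 4 measured thioesterases the median difference was -0.06 in the double and -0.64 in the single mutant on genotype alone, and -1.05 and -1.49 with the sex term.

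Acot2, Acot1, Acot4 and Acot3 lie side by side on the same strand of chromosome 12 and are close relatives in sequence, and probes shared between them were not checked here. In all 4 the male mutants were the lowest arrays. Their upstream regions are shown because the female mutants lay above wild type in Acot3 and below it in Acot4. The 250 bases upstream of a RefSeq start of each (GRCm38.p6, plus strand, 5′ to 3′) are chr12:83987611-83987860 for Acot2, chr12:84009252-84009501 for Acot1, chr12:84038129-84038378 for Acot4 and chr12:84051894-84052143 for Acot3. The Acot4 window lies inside the gene span given above, because the start used is downstream of the first base of the gene. The capitals mark the closest match on either strand to AGGTCA, 1 base of any kind and AGGTCA again, the direct repeat bound by PPAR alpha with its partner receptor, whatever the number of letters that differ.
Acot2: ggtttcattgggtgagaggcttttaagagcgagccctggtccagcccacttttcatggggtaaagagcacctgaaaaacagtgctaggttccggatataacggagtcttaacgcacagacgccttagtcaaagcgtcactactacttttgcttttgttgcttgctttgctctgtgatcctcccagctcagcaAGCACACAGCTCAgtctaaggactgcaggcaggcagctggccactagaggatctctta
Acot1: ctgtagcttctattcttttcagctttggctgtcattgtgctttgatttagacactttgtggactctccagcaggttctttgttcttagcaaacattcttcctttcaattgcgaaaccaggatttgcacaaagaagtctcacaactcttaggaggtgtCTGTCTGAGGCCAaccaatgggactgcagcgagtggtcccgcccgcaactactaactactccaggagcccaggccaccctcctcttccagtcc
Acot4: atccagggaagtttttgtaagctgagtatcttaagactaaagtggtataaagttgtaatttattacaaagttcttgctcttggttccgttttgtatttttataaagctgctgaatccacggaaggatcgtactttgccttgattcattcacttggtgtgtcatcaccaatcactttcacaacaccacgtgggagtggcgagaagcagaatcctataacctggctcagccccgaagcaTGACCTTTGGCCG
Acot3: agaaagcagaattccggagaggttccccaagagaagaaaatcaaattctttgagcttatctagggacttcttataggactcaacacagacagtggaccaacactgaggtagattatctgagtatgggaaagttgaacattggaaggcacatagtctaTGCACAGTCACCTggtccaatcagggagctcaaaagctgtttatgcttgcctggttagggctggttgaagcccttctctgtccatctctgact
The closest match differs from the 12 fixed letters of the repeat at 3 letters in Acot2, 4 in Acot1, 2 in Acot4 and 4 in Acot3. It is on the plus strand in Acot2 and Acot1 and on the minus strand in Acot4, where it ends at the base before the start, and in Acot3.

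The synthetases Acsm1 and Acsm2, mitochondrial enzymes that activate medium chains, had lower group means in both mutants. Their sex differences were opposite in sign, and only that of Acsm1 was called. Acsm1 (chr7:119617757-119662515) measured 7.96, 7.85 and 6.79 in double and 8.63, 6.79 and 8.90 in single mutants, against 8.66 and 8.70 in wild type. The male mutants were lowest and equal to 2 decimals, and the female double mutants lay below the female single mutants, which were near wild type. On genotype alone Acsm1 differed by -1.15 (limma adjusted p = 0.308) in the double and by -0.57 (adjusted p = 0.578) in the single mutant. Once sex was fitted, Acsm1 fell by 2.18 (4.53-fold, SE 0.24, limma adjusted p = 0.00467) in the double and by 1.60 (SE 0.24, adjusted p = 0.00877) in the single mutant.

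Acsm2 (chr7:119554340-119600694) measured 10.73, 10.16 and 11.51 in double and 10.70, 11.06 and 11.06 in single mutants, against 12.07 and 12.43 in wild type. All mutants were below both wild types, and here the male double mutant was the highest of its group. Its difference was -1.45 (2.73-fold lower, SE 0.35, limma adjusted p = 0.0851) in the double and -1.31 (SE 0.35, adjusted p = 0.119) in the single mutant on genotype alone. After fitting sex it was -1.04 (adjusted p = 0.0498) and -0.90 (adjusted p = 0.0694), so that it passed only in the double mutant, and the 2 differences were not shown to be unequal (double minus single -0.14, 95% interval -0.87 to 0.59).

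Of the 13 peroxisomal genes 3 fell in the double mutant (Decr2, Acaa1b, Acox2) and 7 in the single mutant (these and Eci2, Acox3, Hsd17b4, Phyh) with the sex term, where 17.8% and 19.9% of all tested genes fell, so that the count in the double mutant was near the background. Their median was -0.27 in the double and -0.42 in the single mutant on genotype alone, and -0.63 and -0.87 with the sex term, close to the medians of the mitochondrial genes. The oxidases, which open the peroxisomal cycle, had sex differences of opposite sign, of which only that of Acox2 was called. Acox2 (chr14:8225511-8259019), which acts on the branched side chains of bile acid precursors, measured 8.45, 8.21 and 6.73 in double and 8.73, 6.15 and 9.07 in single mutants, against 8.14 and 7.63 in wild type. Its 4 female values all lay above both wild types and its 2 male mutants far below.

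Acox2 therefore had almost no difference on genotype alone, -0.09 in the double and 0.10 in the single mutant, and fell with the sex term by 1.54 (SE 0.34, limma adjusted p = 0.02) and by 1.34 (SE 0.34, adjusted p = 0.0272). Acox3 (chr5:35582981-35614208), an oxidase of branched fatty acids, measured 8.54, 8.12 and 8.91 in double and 8.44, 8.78 and 8.17 in single mutants, against 9.60 and 9.43 in wild type. All mutants were below both wild types, with the male the highest of each group. Its difference was -0.98 (limma adjusted p = 0.099) and -1.05 (adjusted p = 0.111) on genotype alone, and -0.63 (adjusted p = 0.0501) and -0.69 (adjusted p = 0.035) with the sex term.

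Phyh (chr2:4918996-4938743), which starts the alpha-oxidation of phytanic acid, measured 9.24, 8.97 and 9.47 in double and 9.07, 8.80 and 9.29 in single mutants, against 9.86 and 10.05 in wild type. All 6 mutants were lower than both wild types, with the sexes mixed. Its difference was -0.73 (limma adjusted p = 0.104) in the double and -0.90 (adjusted p = 0.0919) in the single mutant, almost unaltered by the sex term at -0.74 (adjusted p = 0.0574) and -0.91 (adjusted p = 0.029). A second Phyh probe set gave group means of 5.82, 5.76 and 6.66 in double mutants, single mutants and wild type, with the same order against wild type.

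Acaa1b (chr9:119148043-119157093), a peroxisomal thiolase, measured 8.35, 7.70 and 7.16 in double and 7.98, 6.60 and 8.11 in single mutants, against 7.97 and 7.88 in wild type. Acaa1b fell with the sex term by 0.96 (limma adjusted p = 0.0347) and by 1.13 (adjusted p = 0.0203), while its paralogue Acaa1a differed by -0.24 and -0.09 without passing. Decr2, the peroxisomal dienoyl-CoA reductase, fell by 0.93 (adjusted p = 0.0361) and by 1.14 (adjusted p = 0.0189). Eci2, an enoyl-CoA isomerase, and Hsd17b4, the D-bifunctional protein, fell in the single mutant, by 0.99 (adjusted p = 0.0198) and by 0.76 (adjusted p = 0.019). Ehhadh (chr16:21761285-21787834), the L-bifunctional protein, did not pass in either comparison. It measured 11.21, 10.19 and 10.02 in double and 10.62, 9.06 and 10.12 in single mutants, against 10.53 and 10.35 in wild type.

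The membrane and import proteins of the peroxisome were not called in any comparison. Abcd3, the transporter of long-chain acyl-CoA, differed by -0.69 in the double and -0.87 in the single mutant with the sex term. The import receptor Pex5 differed by -0.55 and -0.43, its docking partner Pex14 by -0.45 and -0.52, and the division factor Pex11a by -0.60 and -0.69. Fabp1, which carries fatty acids in the cytosol and is a marker of the liver and of the human proximal tubule, was near the low end of the array. It measured 5.79, 5.45 and 4.64 in double and 5.08, 4.54 and 5.30 in single mutants, against 4.56 and 4.66 in wild type, and the 4 females lay above the 4 males.

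The double mutant was set against the single mutant to ask what the loss of osteopontin changed in Alport kidneys. Limma called 0 of 36 members on genotype alone and 0 with the sex term, where the background was 0% in either direction. At an unadjusted p under 0.05 there were 0 and 6 members, against 1.46% and 3.82% of all tested genes. The median over the 40 measured members was 0.11 and over all genes 0.00, and 9 of 36 tested members lay below 0, against 49.6% of all tested genes. By role the medians were 0.45 for thioesterases, 0.17 for peroxisomal and 0.09 for mitochondrial genes. Without single mutant 2 these medians were -0.04, 0.01 and -0.19 on genotype alone, with 24 of 40 members below 0, and 0.45, 0.11 and -0.04 with the sex term, with 19 of 40 below 0.

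The 4 largest differences between the mutants were those of Acot2, Acot1, Acsm1 and Ehhadh, and their intervals were wide. On genotype alone Acot2 was higher in the double mutant by 1.18 (95% interval -0.59 to 2.95) and Acot1 by 0.80 (-0.58 to 2.19), neither past the threshold. Acsm1 differed by -0.58 (-1.85 to 0.69) and Ehhadh by 0.54 (-0.47 to 1.54). With the sex term the interval of Acot2 was 0.34 to 2.02 and that of Acsm1 -1.01 to -0.15, with adjusted p of 0.993 in limma for both. Cpt2 was the only member whose 3 double mutants all lay above all 3 single mutants, at 9.76, 9.18 and 9.20 against 9.17, 8.54 and 9.09, which is 1 of 36 members where 2.02% of all tested genes did so. For Crot, Acads and Crat the intervals on genotype alone were -0.40 to 0.52, -0.22 to 0.32 and -0.51 to 0.59.

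Within each sex the mutants could be compared on 4 females, or on 1 male of each mutant. Among females Acot2 was 11.16 and 9.92 in double against 9.01 and 8.93 in single mutants, and Acsm1 was 7.96 and 7.85 against 8.63 and 8.90. In both genes the groups were apart without overlap, in opposite directions. Both genes were picked for the size of their difference between the mutants, and each group held few arrays. How many of all tested genes were apart in this way was not counted, so no result is read from it. Over all tested members 17 of 36 lay below 0 among females and 4 of 36 among males, against 46.8% and 56.2% of all tested genes. In a model with a mean for each genotype and sex, the female difference was 1.57 for Acot2 (SE 0.38, limma adjusted p = 0.213) and -0.86 for Acsm1 (SE 0.14, adjusted p = 0.109), and the male difference 0.39 (SE 0.54) and -0.01 (SE 0.20). Whether the mutants differed unequally in the sexes was tested as an interaction, and 0 of 36 members passed, against 0% of all tested genes, and 8 of 36 were at an unadjusted p under 0.05, against 12.8%. The female difference lay below the male one in 28 of 36 members, against 42.7% of all tested genes. The smallest adjusted p among the members was that of Etfb, 0.102.

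Among the mutants the members were higher in females than in males. Limma called 14 of 36 members higher in females and 0 lower, where 8.22% of all tested genes were higher and 1.97% lower. Only 5 of 36 lay below 0, against 38% of all tested genes. The 14 called were Crat, Acad11, Hadha, Echs1, Eci1, Etfdh, Acaa2, Acot1, Acot2, Acsm1, Decr2, Acaa1b, Acox2 and Hsd17b4. The 2 male mutants lay below all 4 females in 19 of 36 members, against 29% of all tested genes, and above them in 2, Acox3 and Acsm2, against 10.8%. Since sex was read from the arrays and only 2 mutants were male, sex and a more severe state of these 2 kidneys cannot be told apart, and the injury markers of both are given above. In macrophage and fibroblast markers single mutant 2 had the highest mean of its group (8.91 and 9.41), and double mutant 3 the lowest of its own (8.20 and 8.68). Markers of several kidney cell types moved with the members: their median female minus male difference was 0.83 for 15 proximal tubule markers (5 called higher and 1 lower), 0.83 for 6 collecting duct markers (3 higher), 0.52 for 6 thick limb and distal tubule markers (2 higher) and 0.42 for 5 endothelial markers (2 higher), against 0.55 for the 40 measured members. The part of these cells in the sex difference of the members was not tested.

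Among tested members the largest sex differences were those of Acox2, Acot2 and Acot1, and Acot3, which was below the filter, differed by 1.71. Acox2 averaged 8.62 ± 0.37 (SD, n = 4) in female mutants and 6.44 in the 2 males, a difference of 2.17 (4.51-fold, SE 0.27, limma adjusted p = 0.00676) in the fit with genotype. Acot2 differed by 2.02 (SE 0.38, adjusted p = 0.0209) and Acot1 by 1.62 (SE 0.26, adjusted p = 0.0138), Acsm1 by 1.54 (SE 0.19, adjusted p = 0.00676), Acaa2 by 1.34 (SE 0.18, adjusted p = 0.00851) and Acaa1b by 1.15 (SE 0.21, adjusted p = 0.0189). By role the median was 1.67 for thioesterases, 0.58 for peroxisomal and 0.39 for mitochondrial genes, against 0.09 over all tested genes. Crot, Acads and Phyh differed by -0.16, 0.13 and 0.01 between the sexes, and Acox3 and Acsm2 by -0.53 (adjusted p = 0.0692) and -0.62 (adjusted p = 0.149). Without single mutant 2 the number called was 3, without single mutant 3 it was 5 and without double mutant 1 it was 7.

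**Figure D5:**
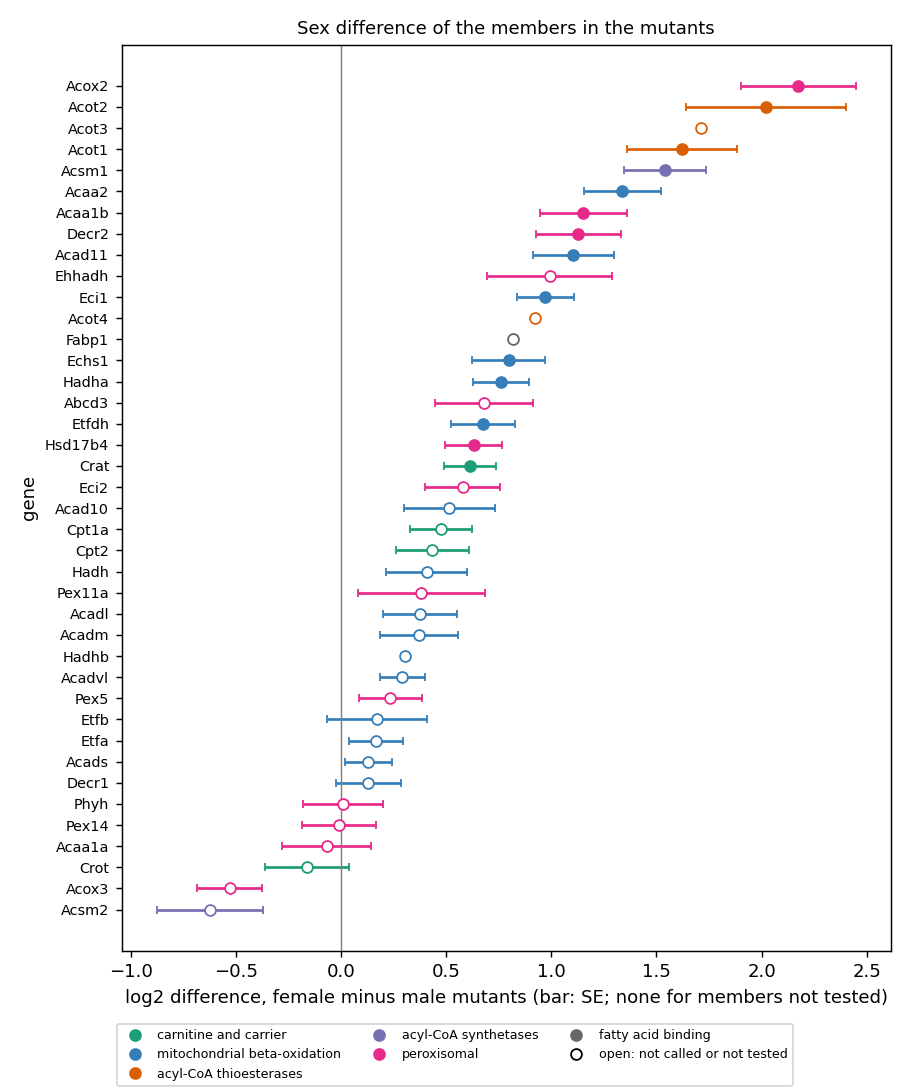
The x axis gives the log2 difference of female minus male among the mutants from the fit with genotype and sex, with a bar of 1 SE on either side, for each measured member on the y axis in order of size; filled points passed limma's adjusted p under 0.05 and points without a bar were below the filter. The values run from 2.17 for Acox2 to -0.62 for Acsm2, and every called member lies on the positive side.

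The 4 male arrays give a comparison with wild type that needs no sex term, with 1 male of each mutant against 2 wild types. In the male double mutant 35 of 36 tested members lay below wild type and in the male single mutant 36 of 36, against 64.7% and 58.2% of all tested genes. The median over the 40 measured members was -0.61 in the double and -0.96 in the single mutant. Each mutant is 1 animal here, so these are values without a test.

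The other genes of these pathways were described from lists chosen with earlier results known. Of 27 tested other enzymes and transporters of the peroxisome, 19 were lower and 1 higher in the double mutant with the sex term. In the single mutant 17 were lower and 0 higher. Of all tested genes 17.8% were lower and 6.4% higher in the double, and 19.9% lower and 7.31% higher in the single mutant. Those lower in both included Cat, the catalase that removes the peroxide made by the oxidases. Cat fell by 1.22 (limma adjusted p = 0.0101) in the double and by 1.50 (adjusted p = 0.00617) in the single mutant. Hao2, an oxidase of hydroxy acids, fell with the sex term by 2.00 in the double and by 2.20 in the single mutant. It was low in the males (9.08 in the double and 7.41 in the single mutant), while no female lay below both wild types. On genotype alone Hao2 differed by -0.38 and -0.58, without passing. Dao, the oxidase of D-amino acids, fell with the sex term by 1.99 and 1.92, and Nudt12, a peroxisomal hydrolase of NADH, by 1.52 and 1.75. Dao and Nudt12 were below both wild types in every mutant. Among other peroxins Pex3, needed to build the membrane, fell by 1.22 and 1.16 and Pex7, an import receptor, by 0.99 and 1.04. These were 2 of 6 tested in each mutant, against 17.8% and 19.9% of all tested genes.

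Genes of fatty acid uptake and other activation had 13 of 19 tested lower in both mutants with the sex term and none higher. Of all tested genes 17.8% were lower in the double and 19.9% in the single mutant. Acsm5, a further medium-chain synthetase, fell by 2.03 in the double and 1.84 in the single mutant, Acss1, a mitochondrial acetyl-CoA synthetase, by 1.43 and 1.50, Mcee, the methylmalonyl-CoA epimerase, by 1.22 and 1.38 and Mmut, the mutase that follows it, by 1.28 and 1.32. Acsm5 and Mmut were below both wild types in every mutant. Acss1 was low in the males (8.37 and 8.22), while its females measured 9.58 to 10.17, against 9.70 and 9.81 in wild type. On genotype alone Acss1 differed by -0.38 and -0.45, without passing. Of 4 tested ketone body enzymes 3 were lower in the double and 2 in the single mutant, against the same shares of all tested genes. Acat1, the acetoacetyl-CoA thiolase, fell by 1.23 and 1.36 and Bdh2 by 1.19 and 1.12. Fatty acid synthesis had 1 of 11 lower in the double and 5 of 11 in the single mutant, against 17.8% and 19.9% of all tested genes. Fads2, a desaturase, was at -1.38 and -1.07. Scd1 went the other way, at 9.71 to 11.01 in double and 10.17 to 11.16 in single mutants, against 9.52 and 8.57 in wild type. Its sex-term differences of 0.77 and 1.02 did not pass. On genotype alone the median of the list was 0.07 in both mutants.

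Of 14 tested PPAR regulators and coactivators 2 were lower in the double (Ppargc1a and Hnf4a) and 3 in the single mutant (these and Nr1h3), near the 17.8% and 19.9% of all tested genes. Ppargc1a, the coactivator that drives mitochondrial genes, measured 9.40, 9.44 and 8.33 in double and 9.72, 8.90 and 9.73 in single mutants, against 9.88 and 9.35 in wild type. It fell with the sex term by 1.20 (limma adjusted p = 0.0112) and by 0.80 (adjusted p = 0.0262). Ppara, the receptor itself, measured 7.59, 7.38 and 7.49 in double and 7.85, 7.14 and 7.76 in single mutants, against 8.21 and 7.73 in wild type, and its sex-term differences of -0.70 (adjusted p = 0.0701) and -0.60 (adjusted p = 0.101) did not pass. Of 11 tested PPAR alpha targets outside oxidation 1 was lower in the double and 5 in the single mutant, against 17.8% and 19.9% of all tested genes. Cyp4a12a, a male-type fatty acid hydroxylase of the mouse kidney, fell in both, by 2.07 and 2.29, and Slc25a20, the carnitine carrier of the inner membrane, in the single mutant, by 1.32.

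The PPAR alpha repeat, AGGTCA, 1 base of any kind and AGGTCA again, was searched on both strands in the 250 bases upstream of each start, in the 39 of 44 members with an entry in the RefSeq promoter table of GRCm38.p6. A match with at most 2 of its 12 fixed letters changed was present in 4 of 39 members (10.3%), namely Fabp1, Echs1, Etfa and Acot4, against 3.72% of 27025 genes with an entry. The window of Acot4 lies inside its gene, as stated above. A single copy of AGGTCA, which the repeat contains, was present on either strand in 7 members (17.9%), against 15.8% of all genes. The upstream regions of the other 3 matches are shown, 5′ to 3′ on the strand of the gene and with the match in capitals, because they hold the letters closest to the repeat. They are chr6:71199629-71199878 (plus strand) for Fabp1, chr7:140116422-140116671 (minus strand) for Echs1 and chr9:55512244-55512493 (minus strand) for Etfa.
Fabp1: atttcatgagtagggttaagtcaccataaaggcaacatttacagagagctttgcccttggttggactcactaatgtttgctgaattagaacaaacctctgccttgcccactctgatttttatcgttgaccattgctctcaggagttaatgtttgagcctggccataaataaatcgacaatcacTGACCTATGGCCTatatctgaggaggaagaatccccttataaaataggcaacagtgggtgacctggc
Echs1: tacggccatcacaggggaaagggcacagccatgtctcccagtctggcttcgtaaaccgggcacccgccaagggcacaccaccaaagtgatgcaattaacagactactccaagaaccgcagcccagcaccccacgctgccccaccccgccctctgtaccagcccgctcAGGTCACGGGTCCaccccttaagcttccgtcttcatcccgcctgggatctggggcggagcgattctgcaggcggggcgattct
Etfa: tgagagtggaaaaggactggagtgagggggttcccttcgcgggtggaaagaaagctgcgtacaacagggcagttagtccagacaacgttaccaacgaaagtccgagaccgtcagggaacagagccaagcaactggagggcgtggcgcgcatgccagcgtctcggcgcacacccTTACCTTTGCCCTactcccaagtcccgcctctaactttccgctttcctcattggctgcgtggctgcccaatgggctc
The match differs from the repeat at 1 letter in Fabp1, 2 in Echs1 and 2 in Etfa, and begins at base -67, -83 and -77 relative to the start. Of these genes Echs1 fell in both mutants with the sex term, Etfa did not pass, and Fabp1 was below the filter. These matches are letters in a window and say nothing on the binding of a factor in these kidneys.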

How the data were processed

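RNA of whole, snap-frozen kidneys of 8 mice was hybridized to 1 array each. The deposited values were taken as log2 intensities from their range (4.20 to 13.43), with array medians of 5.18 to 5.25. The labels state no scaling, background correction or normalization, and the labelling kit in the labels is one for small RNA while the probe sets belong to a whole-transcript array. Arrays give no read depth, and their number limits the precision.

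Of 33793 probe sets 23521 named 1 gene, 1814 named several and 8458 none in the platform annotation. The probe set with the highest mean stood for its gene (22180 genes), and the genes (7145) with a mean over 6.64, the 75th percentile over probe sets, were tested. Differences were fitted with limma 3.58.1 (R 4.3.3), over all 3 groups, on genotype alone, with a sex term, and with a mean for each genotype and sex. P-values are two-sided and Benjamini-Hochberg adjusted over all tested genes, with calls at an adjusted p under 0.05, and intervals cover 95%. The script was tested on simulated data.

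The members and the gene lists were chosen with earlier results of these data known. Members given per array are the tested ones among the 8 largest differences of either mutant from wild type, with or without the sex term, the 4 largest between the mutants and the 6 largest between the sexes; other members are named where their role is described. Related lists name up to 4 genes by size. Coordinates come from RefSeq, and promoters from its GRCm38.p6 table. The alternatives were 3 scalings, 2 filters, the mean of all probe sets, an intensity trend, 2-group fits, each sex alone (the males with 1 animal of each mutant), a replicate block and leaving out each array. Values of the osteopontin gene are not reported here.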

Additional observations from a re-analysis of the deposited data

How the results depend on the processing

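With 8 arrays, 2 of them wild type and both of these male, the number of members called depends on single arrays, while directions held more often. Leaving out 1 array at a time gave 0 to 4 members called in the double and 0 in the single mutant on genotype alone, 1 to 17 and 0 to 26 with the sex term, 0 between the mutants in both fits, 3 to 17 between the sexes and 0 for the interaction, which could not be fitted without single mutant 2 or double mutant 3. The 4 in the double mutant came without single mutant 2 and were Acad10, Crot, Acox3 and Acads, and without double mutant 3 there was 1, Acsm2. On genotype alone the 2-group fit called 3 members in the double mutant, and the males alone gave 10 in the double and 25 in the single mutant, against 6.62% and 15.3% of all tested genes lower, a fit with 1 animal of each mutant and 1 residual degree of freedom that tests single animals. Without a filter the sex-term counts were 8 in the double and 14 in the single mutant, and 5 members differed between the sexes. The median by role over the fits without 1 array ran, for mitochondrial genes, from -0.48 to -0.20 in the double and -0.64 to -0.20 in the single mutant, and from -0.19 to 0.22 between the mutants. For thioesterases it ran from -0.54 to 0.66, -0.90 to -0.16 and -0.04 to 1.01, and for peroxisomal genes from -0.50 to -0.05, -0.59 to -0.14 and -0.08 to 0.34, in the same order. In males alone the thioesterases were at -0.93 in the double mutant, and mitochondrial genes, thioesterases and peroxisomal genes at -0.88, -1.60 and -0.85 in the single mutant. Some differences that had not passed on genotype alone changed sign. In the double mutant Acot2 (-0.26) ran from -1.01 to 0.61 over the fits without 1 array and was above 0 without wild type 2 (0.0067) and double mutant 3, Acox2 (-0.09) ran from -0.41 to 0.45 and was above 0 without wild type 1 (0.17) and double mutant 3, and Acaa2 (-0.21) ran from -0.52 to 0.14 and was above 0 without double mutant 3. In the single mutant Acsm1 (-0.57) ran from -0.97 to 0.083 and was above 0 without single mutant 2, and Acox2 (0.10) ran from -0.44 to 1.02, was -0.15 and -0.27 without wild type 2 and single mutant 1 and lowest without single mutant 3, and was -1.73 in males alone. The cause was not tested. Fits with the replicate number as a block called 0 members in either mutant on genotype alone, 15 in the double and 25 in the single mutant with the sex term, 0 between the mutants in both fits, 11 between the sexes and 0 for the interaction, and Acot2 was at 0.066 in the double mutant on genotype alone. Same-numbered arrays did not deviate together, with correlations of -0.58 to 0.26, so the numbers were not taken to pair mice.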
